A study of Mus musculus with 50 samples.

Results

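DNA replication (S phase) genes were examined in mammary gland tumors of mice that had been injected chronically with vehicle, insulin, glargine, X10 or IGF1. The module holds 38 genes, chosen by name for their part in DNA replication, and the rows of the RPKM table that carry these 38 gene names were used. All 38 were found among the 37701 genes of the table, and all 38 passed the filter on low values, a mean RPKM of at least 0.5, that left 16733 genes for testing. RPKM counts the reads of a gene for each kilobase of its length, relative to all reads of the library. There were 50 tumors, 10 in each of the 5 groups, and each tumor came from a different mouse. All mice were p53R270H/+WAPCre, vehicle mice included: a Cre recombinase under the WAP promoter, which is active in mammary epithelium, turns on their mutant copy of p53. The female mice were 8 weeks old when the subcutaneous injections began, injections were given every other day, and tumors of 1 cm3 were taken 24 h after the last injection. Glargine and X10 are modified insulins, X10 and IGF1 are the compounds with high affinity for the IGF1 receptor, and doses were not part of the labels used here. Tumors titled untreated in the labels were taken as the vehicle group, and single tumors are named here by their titles. The study's authors had chosen EMT-like tumors with a latency close to the median of their group, so these tumors are not a random draw from each group. The paper reports a significantly shorter latency with X10 and IGF1. Age at collection and time under injection may therefore differ between groups, and neither was part of the labels used here.

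Before a cell copies its DNA, the origin recognition complex (Orc1 and Orc6 among its subunits) and Cdc6 and Cdt1 load the MCM2-7 helicase at origins, a step called licensing. Cdc45 and the GINS complex then turn the MCM ring into an active helicase, the primase starts new strands, the polymerases extend them on the sliding clamp PCNA, and Fen1 and Lig1 join the fragments of the lagging strand. Most of these genes are known targets of E2F transcription factors, which the retinoblastoma protein holds in check until cyclin-dependent kinases, with cyclin E among their partners, release them at the entry into S phase. In a whole tumor their RNA level is therefore widely used as a reading of how many cells are cycling. In bulk tissue, fewer cells with the RNA and less RNA per cell cannot be told apart.

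Promoter windows of 31 of the 38 genes were in the RefSeq promoter table (build GRCm38.p6, from 250 bases before to 50 bases after the start of the gene). Mcm4, Gins1, Gins2, Ccne2, Pole, Prim2 and Rfc2 had no entry. The windows were searched on both strands for the 8-base E2F words TTTGGCGC, TTTGCCGC, TTTCGCGC and TTTCCCGC, which can overlap each other. At least 1 of these words was in the window of 11 of the 31 genes (35.5%), compared with 2.6% of all 27025 genes with a promoter window. These 11 genes were Cdc6, Cdt1, Lig1, Mcm3, Mcm5, Mcm6, Mcm7, Orc1, Pola1, Pold1 and Rfc3. The GC box GGGCGG was in 74.2% of the replication gene windows and in 38.2% of all genes, and CCAAT in 58.1% and 41.1%. The cell cycle words TTTGAA and TTCGAA, known from genes of later cell cycle phases, were in 16.1% of the replication gene windows and in 21.7% of all genes. The windows of the replication genes were also richer in G and C, with a median of 61.3% compared with 52.7% for all windows. Below are the 200 bases before the RefSeq start of 4 genes with E2F words there, the helicase subunits Mcm6 and Mcm5 and the licensing genes Cdc6 and Orc1. For contrast those of Chaf1b are given, a chromatin assembly gene whose level followed the other replication genes least. They are written along the gene's strand, and capitals mark the E2F words. The Mcm6 stretch lies at chr1:128359706-128359905 (minus strand), Mcm5 at chr8:75109309-75109508, Cdc6 at chr11:98907951-98908150, Orc1 at chr4:108579254-108579453 and Chaf1b at chr16:93883701-93883900 (all on the plus strand). In the GENCODE M21 annotation Cdc6 starts at 98907801 and Orc1 at 108579423. By that annotation the Cdc6 stretch lies within the gene and the Orc1 stretch reaches into it.
Mcm6: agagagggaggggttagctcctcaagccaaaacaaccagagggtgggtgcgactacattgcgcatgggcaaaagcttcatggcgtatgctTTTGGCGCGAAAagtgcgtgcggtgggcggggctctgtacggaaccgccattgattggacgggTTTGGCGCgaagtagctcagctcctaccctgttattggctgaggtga
Mcm5: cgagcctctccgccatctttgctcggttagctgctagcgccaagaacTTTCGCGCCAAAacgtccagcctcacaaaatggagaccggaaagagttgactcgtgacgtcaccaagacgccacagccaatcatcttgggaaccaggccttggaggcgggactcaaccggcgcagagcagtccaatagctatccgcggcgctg
Cdc6: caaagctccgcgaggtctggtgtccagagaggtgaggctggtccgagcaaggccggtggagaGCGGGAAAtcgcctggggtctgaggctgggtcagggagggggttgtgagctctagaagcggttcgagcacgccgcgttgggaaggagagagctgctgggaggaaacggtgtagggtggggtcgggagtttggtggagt
Orc1: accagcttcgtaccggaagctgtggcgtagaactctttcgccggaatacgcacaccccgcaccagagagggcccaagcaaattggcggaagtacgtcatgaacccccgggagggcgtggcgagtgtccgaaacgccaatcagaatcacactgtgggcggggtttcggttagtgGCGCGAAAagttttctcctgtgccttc
Chaf1b: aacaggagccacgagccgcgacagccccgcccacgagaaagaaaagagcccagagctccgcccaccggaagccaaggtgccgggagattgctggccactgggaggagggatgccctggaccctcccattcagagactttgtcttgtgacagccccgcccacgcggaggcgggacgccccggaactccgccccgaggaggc
In Mcm6 and in Mcm5 words on opposite strands overlap. The Chaf1b stretch holds no E2F word and 4 GC boxes. With group means subtracted, the median correlation with the other replication genes was 0.68 for genes with an E2F word and 0.66 for those without. A match is a description of the letters, and no binding was measured in these tumors.

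All 38 genes were detected in every tumor, and the median gene was covered by 1482 reads in the median tumor. The lowest mean RPKM over the 50 tumors was that of the licensing factor Cdc6, with 5.01, and the highest that of the sliding clamp Pcna, with 96.7, followed by the helicase subunit Mcm7, with 96.4. These levels depend on the gene length that was used for the RPKM, which was recovered from the values and equals the median length of the annotated transcripts in 21 of the 38 genes. For Ccne2 this length is 0.178 times that of its longest transcript, and for Orc6 it is 1.083 times. Per kilobase of the longest transcript and per M reads, the mean was highest for Pcna (52.5 reads), the ribonucleotide reductase subunit Rrm2 (33.0 reads) and Mcm7 (26.4 reads), and lowest for Orc1 (2.63 reads) and Cdc6 (3.75 reads; the order at the low end thus depends on the length used). The 6 subunits of the MCM2-7 ring, which assemble in equal numbers, were within 22.2 and 26.4 reads per kilobase per M reads on this scale, whereas their mean RPKM were between 22.2 and 96.4. The table also lists the pseudogene Pcna-ps2 at a mean RPKM of 18.0, so that reads of Pcna and its copy may not be fully separated.

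Cdc6 had an RPKM between 2.77 and 9.61 in the vehicle group (median 5.22), between 2.77 and 6.16 in the insulin group (median 4.37), between 3.42 and 6.34 in the glargine group (median 4.53), between 1.38 and 7.38 in the X10 group (median 5.55) and between 1.90 and 11.2 in the IGF1 group (median 4.96). The 5 groups overlapped, and the lowest and the highest tumor were both in groups treated with a ligand of high IGF1 receptor affinity. Pcna was between 83.4 and 112.5 in the vehicle group (median 93.1), between 71.2 and 104.5 in the insulin group (median 86.4), between 75.1 and 116.9 in the glargine group (median 90.9), between 66.6 and 143.9 in the X10 group (median 108.6) and between 58.0 and 127.2 in the IGF1 group (median 92.0). Its X10 tumors reached the highest values of all groups, but the lowest X10 tumor was below every vehicle tumor.

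Tumors of the same treatment differed widely. The fold between the highest and the lowest of the 50 tumors was 3.64 in the median of the 38 genes, with 2.32 for the clamp loader subunit Rfc2 at the low end and 23.3 for Mcm4 at the high end. The SD between tumors within groups was 0.37 on the log2 scale in the median gene (0.26 for Pcna to 0.70 for Ccne2, one of the cyclins E), compared with 0.41 over all genes tested. The share of the variance that lay between the 5 groups was 7.04% in the median replication gene and 9.29% in the median of all genes tested, with 8.16% given by 5 groups of 10 without any difference. Only 14 of the 38 genes were above the median of all genes.

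The level of the 38 genes as a whole was summarised in each tumor as the mean of their z-scores, where a z-score is the distance of log2(RPKM + 0.5) from the gene's mean over the 50 tumors in units of its SD. It averaged 0.16 ± 0.563 in the vehicle group, -0.14 ± 0.425 in the insulin group, -0.05 ± 0.496 in the glargine group, -0.18 ± 0.867 in the X10 group and 0.21 ± 0.840 in the IGF1 group (mean ± SD, n = 10 each). The SD within every group was larger than the distance between any 2 group means. It gives the spread of single tumors and not the error of a group mean. The vehicle tumors lay between -0.72 and 1.23 (median 0.16), the insulin tumors between -0.88 and 0.41 (median -0.06) and the glargine tumors between -0.72 and 0.97 (median -0.13). The X10 tumors lay between -2.11 and 0.67 (median 0.07), and the IGF1 tumors between -1.10 and 1.53 (median 0.19). The ranges of all 5 groups overlapped, as the plot of the mean level per tumor shows, and 5.94% of the variance of this mean lay between groups. The lowest tumors were in the X10 and IGF1 groups, and the highest in the IGF1 and vehicle groups.

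**Figure D1:**
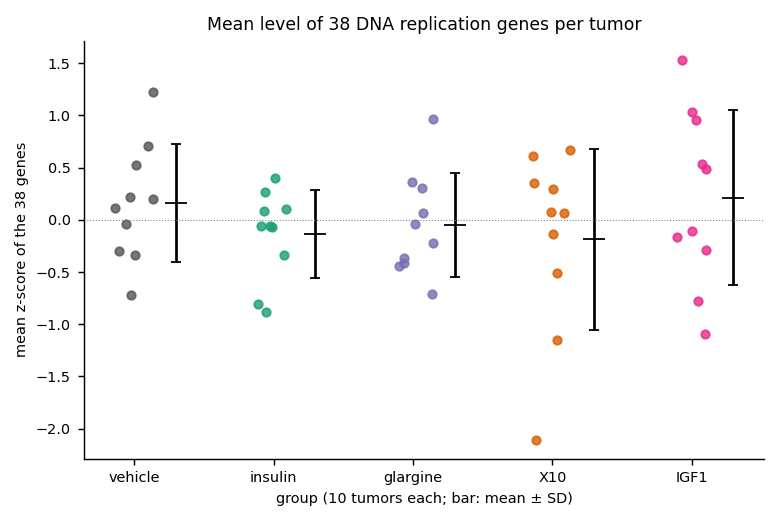
Mean z-score of the 38 DNA replication genes in each tumor (vertical axis) by treatment group (horizontal axis). Points are tumors, 10 in each group, and the black bars give the mean ± SD, from -0.18 in the X10 group to 0.21 in the IGF1 group; the groups overlap, and tumor X10_100 is the lowest point.

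The tumors at the ends of this range were low or high in most replication genes at once, as the heat map shows. In tumor X10_100 (mean z-score -2.11) all 38 genes were below their median over the 50 tumors, and 17 of the 38 had their lowest value there, among them Mcm3, Mcm5, Mcm7, Mcm10, Cdc6, Pole, Rfc2 and Fen1. The summed RPKM of the 38 genes was 621.6 in that tumor, compared with a mean of 1110 ± 222.5 (SD, n = 10) in the X10 group. Tumor X10_105 (mean z-score -1.16) and tumor IGF1_160 (-1.10) followed, with 35 and 30 genes below their median. In tumor IGF1_135 (1.53) 37 genes were at or above their median and 12 had their highest value, and vehicle tumor Untreated_162 (1.23) had the highest value of 6 genes. Tumor X10_100 had 31.9 M reads, in a range of 26.6 to 51.9 M reads over the 50 libraries. Its summed leukocyte markers were the highest of the X10 group, 733.8 RPKM compared with 223.7 in the lowest, but the mean z-score over the 9 leukocyte markers was 0.09, with 4 of the X10 tumors above it. Tumor X10_105 had 48.8 M reads. It had the highest sums of the X10 group for epithelial (4185 RPKM), adipocyte (510.4 RPKM), skeletal muscle (2203 RPKM) and endothelial markers (106.4 RPKM), and the highest leukocyte mean z-score of the group (1.06). The part of depth and of other cell types in these 2 tumors was not tested. Over the 50 tumors the mean z-score hardly followed library size (r = -0.03, n = 50; the libraries share all genes). Without tumor X10_100 the X10 group averaged 0.03 ± 0.576.

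**Figure D2:**
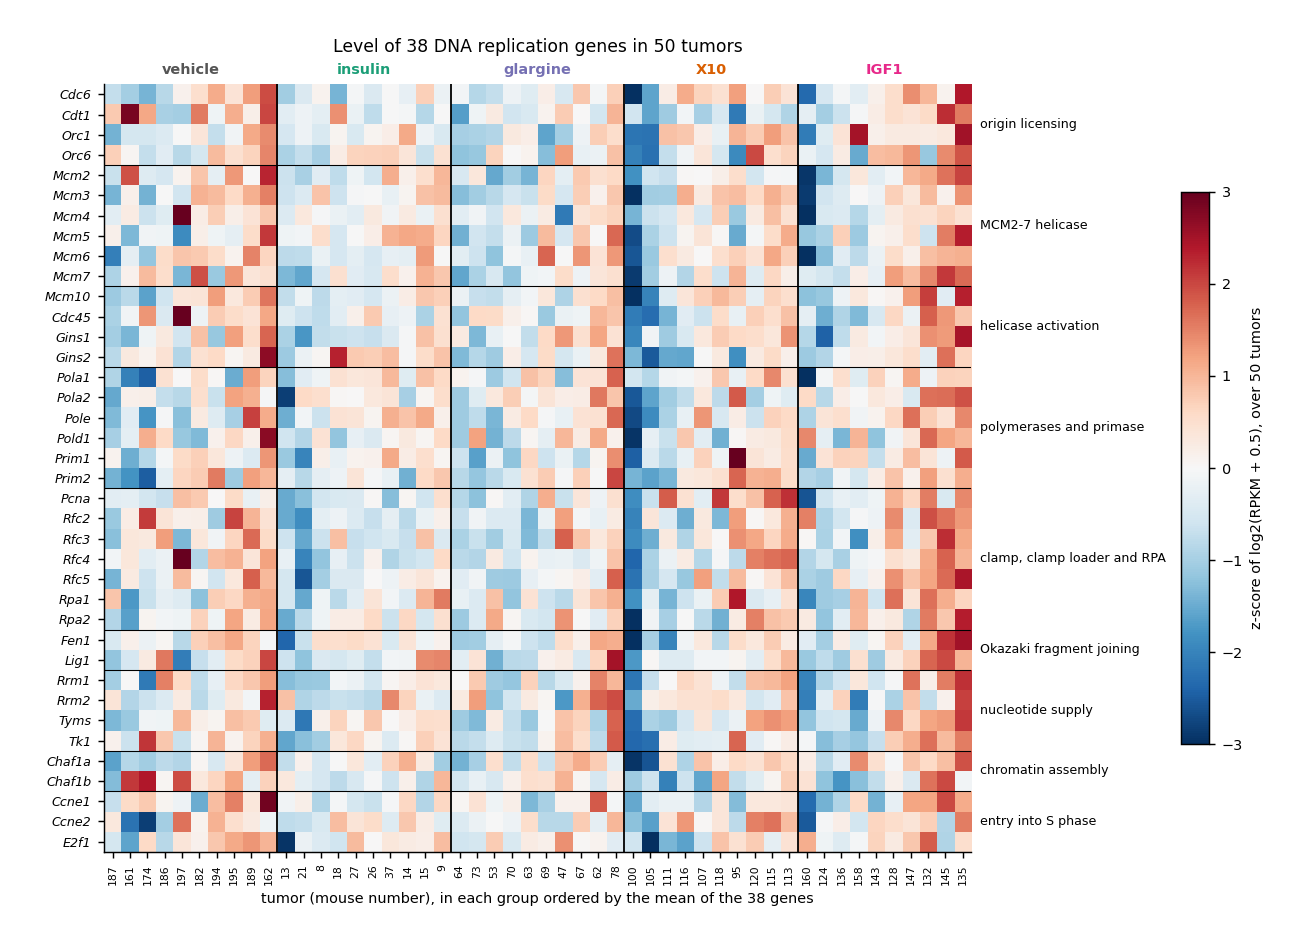
Heat map of the 38 genes (rows, grouped by their role in replication) in the 50 tumors (columns, by group, and within a group from low to high mean level); color is the z-score of log2(RPKM + 0.5) over the 50 tumors, from blue (low) to red (high). The first X10 column, tumor X10_100, is blue in all 38 rows, and within every group columns go from mostly blue to mostly red.

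The question of each treatment against vehicle was whether chronic receptor stimulation left tumors with more or less replication gene RNA. Each gene was tested on log2(RPKM + 0.5) with limma in a fit of all 5 groups, and p-values were adjusted over all 16733 genes by Benjamini-Hochberg. In the test of any difference among the 5 groups (F test), 0 of the 38 genes passed an adjusted p of 0.05, compared with 0.102% of all genes tested. At an unadjusted p under 0.05 there were 4 of 38 genes (10.5%), which was below the 13.1% of all genes tested. These were Cdt1, Rfc2, Chaf1b and Gins2. For insulin against vehicle 0 of 38 genes passed, as did 0% of all genes tested, and 4 of 38 had an unadjusted p under 0.05 compared with 11.1% of all genes. For glargine 0 of 38 passed (0% of all genes), and 1 of 38 compared with 6.23% had an unadjusted p under 0.05. For X10 0 of 38 passed (0.0657% of all genes), and 4 of 38 compared with 11.0% had an unadjusted p under 0.05. For IGF1 0 of 38 passed (0.00598% of all genes), and 2 of 38 compared with 8.84% had an unadjusted p under 0.05. The shares of replication genes at an unadjusted p under 0.05 were thus near or below those of all genes. limma voom on the recovered reads also gave 0 of 38 genes in each of these comparisons.

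The 95% intervals of the differences from vehicle are what the data allow. Across the 38 genes they reached from -0.80 to 0.79 for insulin, from -0.86 to 0.76 for glargine, from -0.89 to 0.94 for X10 and from -0.98 to 0.77 for IGF1 on the log2 scale, with a median SE of 0.164. Every interval in these 4 comparisons therefore left out a 2-fold difference (log2 of 1) in either direction, while smaller differences lay within many of them. The median difference of the 38 genes was -0.11 for insulin (29 of 38 lower than vehicle), -0.08 for glargine (28 lower), -0.11 for X10 (31 lower) and 0.05 for IGF1 (14 lower). Over all genes tested the medians were 0.03, 0.02, -0.03 and 0.02, with 45.5%, 45.9%, 55.6% and 46.6% of genes lower. The 4 comparisons share the vehicle tumors, and the 38 genes move together within a tumor, so these counts are not independent of each other. The SD between tumors of the mean log2 level of the 38 genes was 0.262 within groups. This is the spread of single tumors, and the error of a difference between 2 group means is smaller. The X10 median became -0.01 without tumor X10_100.

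**Figure D3:**
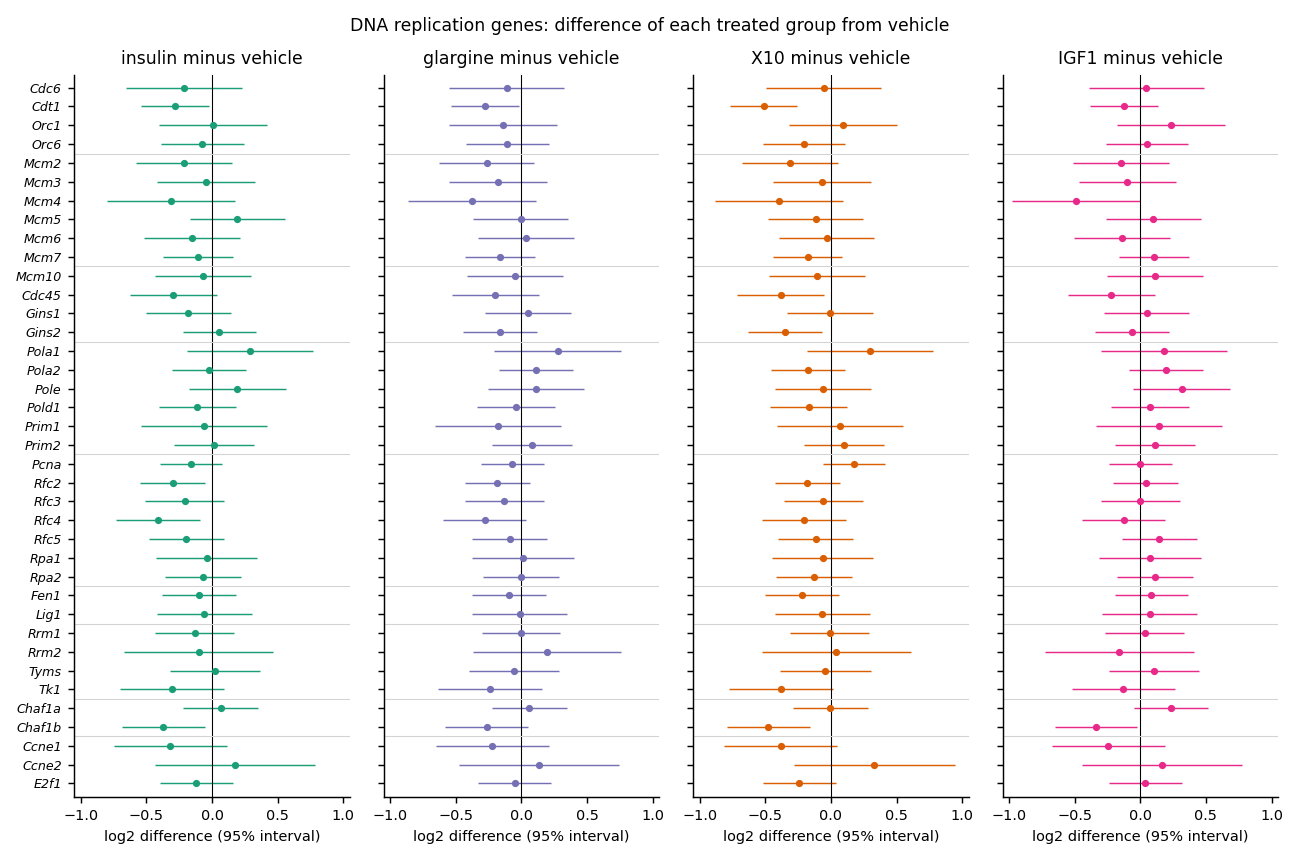
Difference of each treated group from vehicle for the 38 genes (rows, grouped by role), as log2 fold change of RPKM + 0.5 with its 95% interval (horizontal axis), 10 tumors in each group. Most points are left of 0 for insulin, glargine and X10 and right of 0 for IGF1, and all intervals lie between -1 and 1.

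The gene with the smallest p was Cdt1, which loads the MCM2-7 helicase and is destroyed once S phase begins. Its RPKM was between 10.2 and 24.7 in the vehicle group (median 15.9), between 10.5 and 17.7 in the insulin group (median 12.3), between 8.76 and 16.2 in the glargine group (median 12.7), between 7.87 and 12.6 in the X10 group (median 10.8) and between 10.2 and 21.4 in the IGF1 group (median 13.8). The vehicle and IGF1 groups held the high tumors and the X10 group the low ones, and all groups overlapped. In the F test Cdt1 had p = 0.00351 and an adjusted p of 0.188. Against vehicle it differed by -0.51 (SE 0.128) on the log2 scale for X10 (p = 0.000213, adjusted p = 0.137), by -0.28 for insulin (adjusted p = 0.409), by -0.28 for glargine (adjusted p = 0.789) and by -0.13 for IGF1. The X10 difference lay between -0.64 and -0.40 over the alternative settings, with an adjusted p between 0.0441 and 0.42. It passed the threshold only when vehicle tumor Untreated_197 (adjusted p = 0.0453) or vehicle tumor Untreated_186 (adjusted p = 0.0441) was left out, 2 of the 50 tumors left out in turn. Cdt1 lies on chromosome 8. The median of the other genes of chromosome 8 was taken relative to the median of all tested protein-coding genes of the tumor. Of all 50 tumors it was lowest in vehicle tumor Untreated_197, -0.52 on the log2 scale.

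Chaf1b, a subunit of the factor that places histones on new DNA, was next. It was between 22.2 and 58.6 RPKM in the vehicle group (median 37.1), between 24.6 and 40.6 in the insulin group (median 28.2), between 26.9 and 41.1 in the glargine group (median 32.1), between 18.2 and 42.6 in the X10 group (median 26.5) and between 19.6 and 52.4 in the IGF1 group (median 29.2). The median of every treated group was below that of vehicle, and all groups overlapped. The difference from vehicle was -0.48 (SE 0.156) for X10 (p = 0.00373, adjusted p = 0.256) and -0.34 (SE 0.156) for IGF1 (p = 0.0358, adjusted p = 0.526). Chaf1b is on chromosome 16. The median of the other genes of chromosome 16, again relative to all tested protein-coding genes of the tumor, was itself 0.09 (log2) above its average in the vehicle group. In the IGF1 group it was 0.09 below that average (-0.094). Relative to that median the IGF1 difference of Chaf1b was the smallest of its settings, -0.15.

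For insulin, the smallest p-values were those of the clamp loader subunits Rfc4 and Rfc2, which belong to the ring that opens PCNA onto DNA. Rfc4 was between 10.8 and 21.2 RPKM in the insulin group (median 15.6) and between 14.4 and 41.1 in the vehicle group (median 20.0), with the highest value in vehicle tumor Untreated_197. It differed by -0.41 (SE 0.158; p = 0.0119, adjusted p = 0.344), and by -0.31 when vehicle tumor Untreated_197 was left out. Rfc4 was also next to Cdt1 for glargine, with a difference of -0.28 (adjusted p = 0.81). Rfc2 was between 21.6 and 32.7 in the insulin group (median 29.5) and between 25.3 and 48.7 in the vehicle group (median 33.8), a difference of -0.30 (SE 0.123; p = 0.0184, adjusted p = 0.368). In the F test Rfc2 had p = 0.0444 and an adjusted p of 0.372. For IGF1 the helicase subunit Mcm4 differed by -0.49 (SE 0.242; p = 0.0474, adjusted p = 0.558), which became -0.26 without vehicle tumor Untreated_197, where Mcm4 was at 113.5 RPKM and the next vehicle tumor at 27.9.

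Between the ligands, 6 pairs were compared, to see whether insulin, its analogs and IGF1 differed from each other. For glargine against insulin 0 of 38 genes passed (0% of all genes tested), and 0 of 38 compared with 3.96% had an unadjusted p under 0.05. For X10 against insulin 0 of 38 passed (0.102% of all genes), and 2 of 38 compared with 11.3% had an unadjusted p under 0.05. For IGF1 against insulin the counts were 0 of 38 (0.00598% of all genes) and 2 of 38 (7.30% of all genes). X10 against glargine, the comparison with the most genes called in the whole table, had 0 of 38 (1.78% of all genes) and 2 of 38 (11.6% of all genes). IGF1 against glargine had 0 of 38 (0% of all genes) and 1 of 38 (6.98% of all genes). IGF1 against X10 had 0 of 38 passing (0% of all genes) and 7 of 38 at an unadjusted p under 0.05 (11.7% of all genes), all of them higher with IGF1: Cdt1, Pola2, Fen1, Mcm7, Pole, Gins2 and E2f1. This count, the highest of the 6 pairs, depended on single tumors. It was 2 without tumor X10_105 or IGF1_135, 3 without X10_100, X10_111, IGF1_128, IFG1_132 (the title's spelling of IGF1), IGF1_145 or IGF1_147, and 4 without X10_116, and it reached 9 when other tumors were left out. With p-values adjusted over genes and the 6 pairs together, the smallest of any replication gene was 0.283, for Cdt1. The bounds of the 95% intervals of the 38 genes lay between -0.92 and 0.86 (log2) over the 6 pairs, so that differences of less than 2-fold in either direction fit within them. A missing call does not show that the ligands acted alike.

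Cdt1 was 0.39 higher (SE 0.128) in the IGF1 than in the X10 group on the log2 scale (p = 0.00405, adjusted p = 0.344), and Pola2, a subunit of the polymerase that carries the primase, 0.37 higher (SE 0.140; p = 0.0125, adjusted p = 0.359). Pola2 was also -0.29 (SE 0.140) in X10 relative to glargine (p = 0.0478, adjusted p = 0.421). Pcna was 0.34 higher (SE 0.118) in the X10 than in the insulin group (p = 0.00621, adjusted p = 0.204) and 0.25 higher than in the glargine group (p = 0.042, adjusted p = 0.402). Without tumor X10_100 the adjusted p of these 2 Pcna differences was 0.0902 and 0.135. Gins2, a subunit of the GINS complex, was between 3.94 and 8.48 RPKM in the X10 group (median 6.34) and between 5.65 and 12.8 in the insulin group (median 8.62), a difference of -0.41 (SE 0.140; p = 0.00536, adjusted p = 0.193). X10 relative to insulin thus held both a higher Pcna and a lower Gins2, neither of which passed. Between glargine and insulin the smallest p-values were those of Gins2 (-0.22, adjusted p = 0.99) and Gins1 (0.23, adjusted p = 0.99). IGF1 was higher than insulin in Rfc2 by 0.34 (SE 0.123; p = 0.00798, adjusted p = 0.558) and in Rfc5 by 0.34 (SE 0.143; p = 0.0206, adjusted p = 0.634), both clamp loader subunits. IGF1 was higher than glargine in Mcm7 by 0.27 (p = 0.0472, adjusted p = 0.712) and in the origin subunit Orc1 by 0.38 (adjusted p = 0.739).

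Finally, the 20 tumors of the ligands with high IGF1 receptor affinity, X10 and IGF1, were set against the 30 others. Of the 38 genes 0 passed (0.155% of all genes tested), and 1 of 38 compared with 10.5% had an unadjusted p under 0.05. This was Pcna, 0.17 higher (SE 0.076; p = 0.0354, adjusted p = 0.424), followed by Chaf1b at -0.20 (adjusted p = 0.502). The median over the 38 genes was 0.02, and 0.07 without tumor X10_100. X10 and IGF1 lay on opposite sides of vehicle in their medians, -0.11 and 0.05. So did the medians of all genes tested, -0.03 and 0.02, and without tumor X10_100 the X10 median of the 38 genes was -0.01. The direct comparison of IGF1 with X10 gave a median of 0.14 over the 38 genes. Without tumor X10_100 that median was 0.07. All genes tested also leaned to IGF1 over X10, with a median of 0.05, or 0.04 without tumor X10_100.

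By role, the group means were described without a test. The 4 licensing genes had a mean z-score of 0.25 in the vehicle group and -0.28 in the X10 group, the largest distance between these groups after the 2 chromatin assembly genes (0.28 and -0.37) and the 4 helicase activation genes (0.25 and -0.34). The 6 polymerase and primase genes were the only role with a lower mean in the vehicle group (-0.12) than in the insulin, glargine and IGF1 groups (-0.04, 0.03 and 0.29). The 7 clamp, clamp loader and RPA genes were lowest in the insulin group (-0.40) and highest in the IGF1 group (0.32). SDs within groups were between 0.306 and 1.107.

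Across the 50 tumors the replication genes rose and fell together. Over the 703 pairs of genes the mean Pearson correlation of log2(RPKM + 0.5) was 0.41 (Spearman 0.40; 0.43 after the group means were subtracted), and 685 of the 703 pairs (97.4%) were above 0. The first principal component held 44.6% of the variance of the 38 genes and the following one 10.8%. The genes of a tumor share its library and its cell composition, so these correlations are given as descriptions, with n = 50 tumors. The closest pair was the licensing factor Cdc6 and Mcm10, which helps to start the helicase, with r = 0.89. The pair furthest apart was the polymerase subunit Pola1 and Chaf1b, with r = -0.23.

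The genes whose level was closest to the mean of the other 37 were Mcm10 (r = 0.83), Rfc5 (0.81) and the helicase subunit Mcm3 (0.81). Mcm10 was between 11.3 and 28.4 RPKM in the vehicle group, between 14.4 and 22.6 in the insulin group, between 13.8 and 23.3 in the glargine group, between 6.78 and 23.7 in the X10 group and between 12.6 and 34.9 in the IGF1 group, with medians of 19.8, 16.8, 17.3, 20.4 and 18.5. Mcm3 had medians of 32.4, 28.8, 25.1, 35.5 and 29.5 in the same order, with its lowest values in tumors X10_100 (11.3) and IGF1_160 (12.7). Rfc5 had medians of 38.2, 34.5, 35.4, 35.0 and 43.6, from 20.4 in the lowest insulin tumor to 64.6 in the highest IGF1 tumor. The 5 groups overlapped for all 3 genes.

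The genes that followed the others least were Chaf1b (r = 0.31), Cdt1 (0.37) and Rrm2 (0.41). Chaf1b and Cdt1 were also the 2 genes with the smallest p against vehicle above. Rrm2, the regulated subunit of the enzyme that makes deoxynucleotides, was between 55.2 and 224.7 RPKM in the vehicle group (median 73.4), between 54.2 and 153.7 in the insulin group (median 63.9), between 37.73 and 191.6 in the glargine group (median 91.5), between 41.6 and 118.4 in the X10 group (median 93.2) and between 31.9 and 201.1 in the IGF1 group (median 75.2). Every group held tumors at low and at high Rrm2. Its SD within groups, 0.65 on the log2 scale, was among the largest of the 38 genes. The median correlation with the other genes (group means subtracted) was 0.68 for the 11 genes with an E2F word in the promoter window (0.32 to 0.84) and 0.66 for the 20 without (0.29 to 0.82).

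Genes on the same chromosome followed each other more closely than genes on different ones. All coordinates used here are those of GENCODE M21 on GRCm38. Of the 703 pairs, 49 lie on the same chromosome, and their mean correlation was 0.58 after the group means were subtracted, compared with 0.41 for the 654 pairs on different chromosomes. Chromosome 16 holds Mcm4, Cdc45, Rfc4 and Chaf1b. Its pairs were Cdc45 and Rfc4 (0.76), Mcm4 and Rfc4 (0.66), Cdc45 and Chaf1b (0.63), Mcm4 and Cdc45 (0.60), Rfc4 and Chaf1b (0.50) and Mcm4 and Chaf1b (0.27). Chaf1b followed the replication genes as a whole least. Mcm4, Cdc45 and Rfc4 were all highest in the same tumor, Untreated_197, and the correlations among these genes were not computed without it. Each gene was then set beside the median of the other protein-coding genes of each chromosome. From this the median of all tested protein-coding genes of the same tumor was subtracted. In this way 20 of the 38 genes (52.6%) followed their own chromosome more closely than any of the other 19. The same was true of 41.4% of the 13468 other protein-coding genes tested. The correlation with the own chromosome was 0.73 for Pola1 (chromosome X), 0.68 for Rrm2 (chromosome 12), 0.64 for the single-strand binding subunit Rpa2 (chromosome 4), 0.58 for Chaf1b and 0.53 for Cdt1. For Rrm2, Cdt1, Orc6, Pola1, Rfc2 and Chaf1b it exceeded the correlation with the mean of the other replication genes. Rrm1 (-0.05) and Gins1 (-0.18) did not follow their chromosome.

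The nearest neighbours on the chromosome were looked at next. For each gene the median of its 10 nearest tested protein-coding genes, 5 on each side, was taken (5 in all for Rfc3, on 1 side), a stretch of 1.07 Mb in the median. All 38 genes correlated above 0 with their neighbours (91.2% of the 13468 other protein-coding genes tested did), and the median correlation was 0.50 compared with 0.42 for these others. It was 0.82 for Pola1, 0.77 for Ccne2, 0.74 for Orc1, 0.72 for Mcm4 and 0.68 for the single-strand binding subunit Rpa1. For Ccne2, Mcm4, Pola1, E2f1, Chaf1b, Cdt1, Rfc2, Rpa1, Orc1 and Cdc45 the neighbours were followed more closely than the mean of the other 37 replication genes, as the plot of the 3 correlations shows. Following the chromosome and following the neighbours were not the same: Gins1 had -0.18 with its chromosome and 0.59 with its neighbours, Ccne2 0.23 and 0.77, and Rrm2 0.68 and 0.41. DNA copy number was not measured in these tumors.

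**Figure D4:**
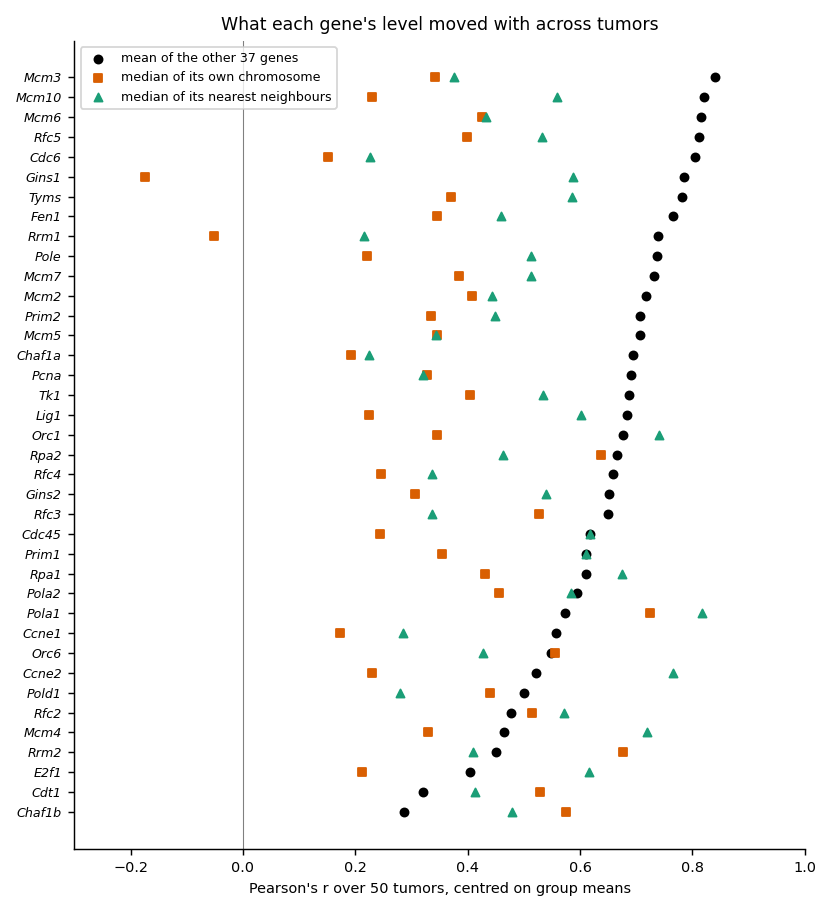
Pearson correlation over 50 tumors, group means subtracted (horizontal axis), of each of the 38 genes (rows) with the mean of the other 37 genes (circles), the median of the other genes of its chromosome (squares) and the median of its nearest neighbours, 10 in most cases (triangles). For the squares alone, the median of all tested protein-coding genes of the tumor was subtracted from the chromosome median. Circles fall from 0.84 for Mcm3 to 0.29 for Chaf1b, and for Chaf1b and Cdt1 square and triangle both lie to the right of the circle.

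Of the 24 cases in which the lowest or highest tumor of a group stood apart in a replication gene, all 10 neighbours lay on the same side of their medians in 6. These were Mcm4, Prim1, Pola1, Cdt1, Pola2 and Lig1. Outlying tumors of other genes were not counted in this way, so no share over all genes stands beside it. The 3 of these 6 with the largest distance from the median tumor, picked out after their values were seen, are described here, and other replication genes also stood apart in 2 of these tumors: Rfc4 in Untreated_197, and Mcm3, Mcm4 and Pcna in IGF1_160. In vehicle tumor Untreated_197 Mcm4 was at 113.5 RPKM, 2.34 above its median over 50 tumors on the log2 scale. All 10 neighbours were above their medians, by 1.01 in the median and from 0.02 (Pkp2) and 0.08 (Abcc1), hardly above them, to 2.74 (Ube2v2). Among them Ube2v2 was at 148 RPKM compared with a median of 21.7, the DNA repair kinase gene Prkdc at 9.79 compared with 2.84, and Spidr at 17.1 compared with 5.94. The same tumor had the highest Cdc45 (35.7 RPKM) and Rfc4 (41.1 RPKM), which lie elsewhere on chromosome 16. It also had the highest Ccne2 (59.8 RPKM), which is on chromosome 4. Chaf1b, also on chromosome 16, was highest in vehicle tumor Untreated_174. In tumor X10_95 the primase subunit Prim1 was at 49.1 RPKM, while the next X10 tumor was at 16.9, and all 10 neighbours on chromosome 10 were above their medians, by 1.47 in the median and from 0.43 (Lrp1) to 2.63 (Tmem194). In tumor IGF1_160 Pola1 was at 3.73 RPKM, while the next IGF1 tumor was at 13.9. All 10 neighbours on chromosome X were below their medians, by -1.24 in the median and from -0.46 (Klhl15) to -1.86 (Tab3).

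**Figure D5:**
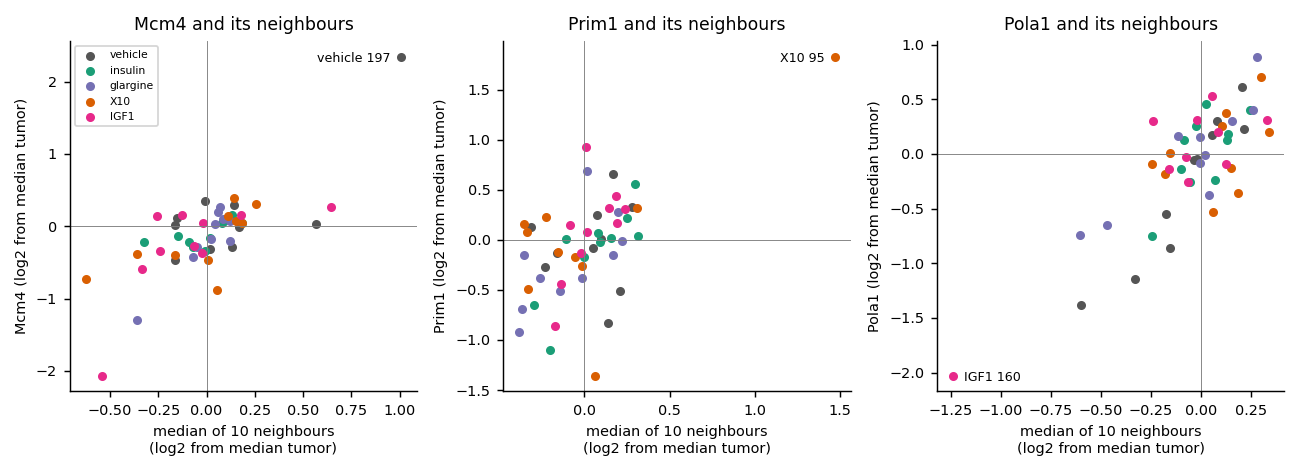
Level of Mcm4, Prim1 and Pola1 in each of 50 tumors (vertical axes) against the median of their 10 nearest protein-coding neighbours (horizontal axes), both as log2 distance from the median tumor; color gives the treatment group. Vehicle tumor Untreated_197, tumor X10_95 and tumor IGF1_160 lie at the corner of their panels, with gene and neighbours displaced in the same direction.

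Other genes of the cell cycle moved with the replication genes across tumors, and none of those listed passed in any comparison. Of 48 further replication genes, among them the polymerase and replication fork subunits not named above, 0 passed an adjusted p of 0.05 in any of the 11 comparisons or the F test. The one with the smallest F test p was the origin subunit Orc4 (p = 0.0119, adjusted p = 0.27), with a mean RPKM of 51.7 in the X10 group and between 34.8 and 39.0 in the others. Of 30 genes that control entry into S phase 0 passed, and the smallest F test p was that of Cdkn2a (p = 0.00849, adjusted p = 0.244), which encodes the inhibitors p16INK4a and p19ARF. Its mean RPKM was 480 in the IGF1 group, 355.8 in the vehicle group and 251.5 in the X10 group. Of 20 genes of mitosis 0 passed, and the smallest was Mki67 (p = 0.227, adjusted p = 0.61). The mean z-score of the 48 further replication genes correlated with that of the 38 genes with r = 0.89, the mitosis genes with 0.85 and the G1/S control genes with 0.68. The cell cycle inhibitor Cdkn1a was the G1/S control gene that ran most against them (r = -0.33, group means subtracted), and 47 of the 48 further replication genes and 20 of the 20 mitosis genes were above 0.

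The genes outside the module whose level was most like its mean, with the group means subtracted, included Rad54l (r = 0.83), Exo1 (0.83), Dkc1 (0.82), Uhrf1 (0.82), Cdca7 (0.81), Ncapg (0.81), Rad54b (0.81), 2810417H13Rik (0.80) and Mms22l (0.80), over 50 tumors. Rad54l, Rad54b, Exo1 and Mms22l are known from homologous recombination at damaged forks, and Uhrf1 from the copying of DNA methylation. Within single groups of 10 tumors the lowest of these correlations were between 0.40 (Uhrf1) and 0.74 (2810417H13Rik).

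The means of the cell type marker lists followed the replication genes weakly or not at all, while single markers differed more. With group means subtracted, leukocyte markers ran from -0.42 (S100a8) to 0.39 (Emr1) and mesenchymal markers from -0.42 (Pdgfrb) to 0.17 (Vim). All 7 epithelial markers were below 0, from -0.40 (Krt14) to -0.11 (Krt8). The correlation of the mean z-score of each marker list with that of the 38 genes was -0.29 for 7 epithelial markers, -0.13 for 7 fibroblast or mesenchymal markers, -0.11 for 9 leukocyte markers, -0.02 for 4 endothelial markers, 0.14 for 5 adipocyte markers, 0.03 for 5 skeletal muscle markers and 0.13 for 4 markers of milk secretion. All markers were detected in at least 1 tumor. Summed epithelial markers were between 12.6 and 5924 RPKM in the vehicle group and between 11.8 and 4185 in the treated groups, and summed mesenchymal markers between 4005 and 35020 and between 6522 and 33710. In all 5 groups the highest mesenchymal sum was above the highest epithelial sum. Summed leukocyte markers were between 178.9 and 1187 in the vehicle group and between 219.7 and 733.8 in the treated groups. No marker passed an adjusted p of 0.05 in any comparison; the smallest F test p in each list was that of Krt19 (0.00766), Pdgfrb (0.0275), Itgam (0.156), Tek (0.503), Lep (0.0556), Acta1 (0.919) and Lalba (0.00499). With leukocyte, adipocyte and muscle marker scores in the fit, 0 of the 38 replication genes passed in any comparison.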

How the data were processed

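RNA of 50 mammary gland tumors was Poly-A selected, and libraries were read on an Ion Proton instrument. TopHat2 2.0.10 with Bowtie2 placed the reads on GRCm38 and HTSeq 0.6.1 counted them by gene, per the submitters' processing notes. The authors deposited RPKM values, without log transformation. The 38 genes and the gene lists were chosen with earlier results of these data known. Since a gene's RPKM values come in steps of 1 read, gene lengths, reads and library sizes (26.6 to 51.9 M reads) could be recovered, and between 97.6% and 99.9% of the scaled values of a tumor came out as whole reads. Of 15808 genes with several transcripts the recovered length equalled the median GENCODE M21 transcript length in 45.9% and the longest transcript in 2.7%, which affects levels between genes and not comparisons between tumors. The 38 genes had 1482 reads in the median, and precision is limited by the spread between tumors.

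Because RPKM values are not counts, a count test was not the main test. limma 3.58.1 (R 4.3.3) was run on log2(RPKM + 0.5) with an intensity trend and all 5 groups together, on the 16733 genes whose mean RPKM reached 0.5, and p-values were adjusted over these by Benjamini-Hochberg. A log2 fold change is on this scale and understates the change of low genes. Groups were taken from the sample titles. The full statistics of a comparison are those of the 2 replication genes with the smallest p in it. Values by group are given for the genes with the highest and lowest mean RPKM and for the 3 most and 3 least like the mean of the others. The 10 genes most like the module, of which 1 is not reported here, and, for each gene list, the gene with the smallest F test p are named. The alternatives were pseudocounts of 0.1 and 1, no filter or a mean RPKM of at least 5, quantile and upper quartile scaling, no intensity trend, only the groups compared, library size or marker scores as covariates, limma voom on the recovered reads, Spearman correlation and subtracted group means. Values relative to the chromosome median, and each of the 50 tumors left out in turn, were added after seeing the data. The recovery and the test were checked on simulated data. Descriptions were computed with Python 3.11.15, numpy 2.4.6, scipy 1.17.1, pandas 2.3.3 and matplotlib 3.10.9.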

Additional observations from a re-analysis of the deposited data

Results flagged for a closer look

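The 38 genes and their mean level were looked at in each of the 5 groups of 10 tumors, and 24 of these looks (12.3%) found a lowest or highest tumor apart from the others, with a gap to the next tumor above Dixon's critical value for the range of the group. Chance sets apart about 1 in 20 groups, and the 38 genes are not independent of each other. All values below are RPKM.

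Tumor X10_100 was the low tumor of the X10 group for Mcm2 (13.07), Mcm3 (11.32), Mcm7 (51.54) and the ligase Lig1 (9.562). Tumor IGF1_160 was the low tumor of the IGF1 group for Mcm3 (12.66), Mcm4 (4.87), Pcna (58.02) and Pola1 (3.733). Tumor X10_95 was the high tumor of its group for Prim1 (49.12). In the glargine group, Mcm4 was low in 1 tumor (8.649), and Rfc5 (55.71) and Lig1 (31.03) were high in another.

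In the vehicle group, tumor Untreated_197 was high for Mcm4 (113.5) and Rfc4 (41.14), and tumor Untreated_162 for Rrm2 (224.7) and Gins2 (13.96). In the insulin group, 1 tumor was low for the transcription factor E2f1 (6.667), Pola2 (7.778) and Fen1 (13.91), and another for the thymidylate synthase gene Tyms (13.01) and Rfc5 (20.36). Single insulin tumors were high for Mcm6 (50.52), Orc1 (16.46) and Cdt1 (17.67). In 15 of the 24 looks at least 8 of the nearest neighbours on the chromosome lay on the same side of their medians as the replication gene, and in 6 all of them did. The same count was not made for other genes, which also followed their neighbours (median correlation 0.42). It therefore does not set the replication genes apart.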

How the results depend on the processing

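The count of replication genes passing an adjusted p of 0.05 was 0 in every comparison and in the F test under every alternative, except for X10 against vehicle. There it ranged from 0 to 1 when single tumors were left out, the 1 gene being Cdt1 without vehicle tumor Untreated_186 (-0.57 on the log2 scale, adjusted p = 0.0441) or Untreated_197 (-0.58, adjusted p = 0.0453). Direction was checked for the 2 replication genes with the smallest p in each comparison, and none was reversed. Cdt1 in glargine against insulin, not among these, ranged from -0.04 to 0.06 (log2) over single tumors left out. Tests of the whole table moved more: the genes called ranged from 0 (no filter) to 22 (mean RPKM of at least 5) in the F test (17 as reported), from 1 (library size as covariate) to 24 (no filter) for X10 against vehicle (11), from 7 (library size as covariate) to 31 (only the groups compared) for X10 against insulin (17), from 142 (no filter) to 364 (only the groups compared) for X10 against glargine (298), and from 11 (no filter) to 60 (without tumor X10_100) for X10 and IGF1 against the rest (26). Insulin against vehicle ranged from 0 to 2 (0), and IGF1 against vehicle and against insulin from 0 to 1 (1 each). Replication genes at an unadjusted p under 0.05 in IGF1 against X10 ranged from 2 (only the groups compared) to 8 (library size as covariate) over the other settings and from 2 to 9 over single tumors left out, with 7 as reported, and in IGF1 against vehicle from 0 (among others without tumor Untreated_197) to 3 (marker scores as covariates), with 2 as reported. The median over the 38 genes turned from -0.05 to 0.05 for X10 against insulin and from -0.06 to 0.03 for X10 against glargine without tumor X10_100, and from 0.06 to -0.05 for glargine against insulin with marker scores as covariates. The causes were not tested. No paired analysis was possible because each tumor has a mouse number of its own and the groups share none.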
